A study of Mus musculus with 8 samples.

Results

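The 33 genes described here carry out or control the synthesis, modification and efflux of cholesterol and fatty acids, and were measured by RNA sequencing in mouse CD8+ T cells. They were chosen by name and kept where the normalised read count was at least 10 in at least 2 libraries of an experiment. All 33 passed in both experiments, among 15415 genes tested of 49490 listed in the first experiment and 13978 tested of 55291 listed in the second. The set comprises 16 enzymes of the mevalonate and sterol pathway, 5 regulators and carriers of the sterol-sensing system, 10 enzymes of fatty acid synthesis, desaturation and elongation, and 2 cholesterol efflux transporters.

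The first experiment compared CD8+ T cells homozygous for a floxed Trim28 allele (Trim28fl/fl, the control) with cells lacking Trim28 (Trim28-/-), both activated in vitro. Trim28 encodes a corepressor that KRAB zinc finger proteins recruit to chromatin, and the labels do not name the Cre driver or the activation time of these cells. The second experiment compared wild-type CD8+ T cells cultured for 3 days under stimulation by anti-CD3 and anti-CD28 with cells that also received an antibody against IL-2, the growth factor that activated T cells make for themselves. Each of the 4 groups had 2 libraries of polyadenylated RNA from cells of spleens and lymph nodes. The labels read here name no strain or age, and list the floxed controls as WT. The labels do not say whether the 2 libraries of a group came from separate mice or cultures, and a p-value therefore rests on the variation between those libraries alone, which could be technical.

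Cholesterol is built from acetyl-CoA through mevalonate, farnesyl pyrophosphate, squalene and lanosterol. Its enzymes are transcribed under SREBP proteins, membrane-bound transcription factors that the escort protein SCAP carries to the Golgi for cleavage when sterols are low and that INSIG proteins hold back when sterols are high. LXR receptors sense oxysterols and raise efflux transporters, SREBP-1c and stearoyl-CoA desaturase. Activated T cells are known to switch on this programme to build membranes before they divide.

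Sterol-responsive promoters are known to place SREBP sites next to boxes for NF-Y and Sp1, so the 250 bases before the annotated start were searched on both strands for TCACNCCAC (the core of a sterol regulatory element), CCAAT (the NF-Y box), GGGCGG (an Sp1 box) and CACGTG (an E-box). RefSeq windows on GRCm38.p6 were matched by symbol for 25 of the 33 genes. These had 32 windows, since some genes have several annotated starts, and a match in any window of a gene was counted. CCAAT was present in 19 of the 25 genes (76%), against 41.1% of 9248 tested genes with a window. CCAAT was present in 13 of 13 sterol enzymes with a window. For Dhcr7 it was found only in a window inside the gene, from chr7:143829964, where the gene starts at 143823145. GGGCGG was present in 20 of the 25 genes (80%) against 63.7%. CACGTG was present in 7 genes (28% against 9.96%), and TCACNCCAC was present in Hmgcs1 alone (4% against 1.2%). Among genes with a window, CCAAT was found in 7 of 9 genes higher and 8 of 10 lower in the knockout, and in 4 of 5 higher and 11 of 15 lower under anti-IL-2. A match is a description of these letters and not a measured binding site. Of the member windows, 28 of 32 had their last 30 bases inside a transcript of the gene.

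The following promoters show these letters beside different responses, with every match to the 4 motifs on either strand in capitals (ATTGG is CCAAT, and CCGCCC is GGGCGG, read on the other strand). Hmgcs1, the enzyme that makes HMG-CoA, was lower in both experiments and has its sterol element core 137 bases before the start. Nsdhl, a sterol C-4 decarboxylase, was higher in the knockout, and Sc5d, the sterol C-5 desaturase, was lower in both. The last 2 were chosen after their values were seen. The windows lie upstream of the genes, at chr13:119690101-119690350 on the plus strand, chrX:72918271-72918520 on the plus strand and chr9:42264301-42264550 on the minus strand.
Hmgcs1: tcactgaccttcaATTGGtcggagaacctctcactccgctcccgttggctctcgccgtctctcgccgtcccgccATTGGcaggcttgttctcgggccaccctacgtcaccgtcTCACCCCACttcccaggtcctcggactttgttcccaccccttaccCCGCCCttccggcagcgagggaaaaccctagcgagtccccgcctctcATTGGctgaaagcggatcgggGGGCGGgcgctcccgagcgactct
Nsdhl: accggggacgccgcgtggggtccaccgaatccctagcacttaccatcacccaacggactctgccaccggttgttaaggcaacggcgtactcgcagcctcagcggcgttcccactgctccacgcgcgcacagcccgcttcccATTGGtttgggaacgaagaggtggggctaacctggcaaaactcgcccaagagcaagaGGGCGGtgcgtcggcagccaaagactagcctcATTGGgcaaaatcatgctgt
Sc5d: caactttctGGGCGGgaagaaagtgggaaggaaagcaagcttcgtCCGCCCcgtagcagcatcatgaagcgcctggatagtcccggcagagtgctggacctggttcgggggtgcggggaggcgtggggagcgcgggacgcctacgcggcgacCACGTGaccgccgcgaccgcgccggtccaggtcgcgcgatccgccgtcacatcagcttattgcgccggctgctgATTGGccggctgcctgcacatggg

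Reads assigned to listed genes, recovered from the normalised values, came to 13222831 to 13469789 per library in the knockout experiment. In the blockade experiment they came to 16618750 to 17069569. Trim28 itself was at 4262 and 4323 normalised reads in the control libraries and at 415 and 458 in the knockout libraries, 9.83-fold lower. In the blockade experiment Trim28 was called higher under anti-IL-2, from 5774 and 5920 in untreated to 7926 and 8528.5 in blocked libraries. Its log2 rise there was 0.439 to 0.545 over the alternative runs. Il2ra, whose transcription IL-2 maintains, was 2.01-fold lower under anti-IL-2. With Trim28 loss Il2ra was also called lower, from 26818.5 and 27387 to 24794 and 23967, a call kept in 12 of 13 alternative runs. All 5 CD8 T cell markers were detected in every group, with summed levels of 17098.1 to 17752.9 in the knockout experiment, 27809.9 to 28013.7 in untreated cells and 21886.4 to 22522.4 under anti-IL-2. Of the 5, 2 rose and 2 fell with Trim28 loss, and 4 fell with blockade (80% called in each, against 61% and 60.3% of all genes). With Trim28 loss Cd8b1 went from 4104 and 3915 to 2828 and 2922, and Cd3e from 2143 and 2215 to 2850 and 2711. Summed NK cell markers (3 of 4 detected in each experiment, Ncr1 at 0) went from 1139.4–1209.0 to 385–424 with Trim28 loss and from 2985–3026 to 554–614 with blockade. Most of this sum was Klrd1, which fell in both experiments, while Eomes rose in the knockout (log2 0.60, adjusted p = 0.00228) and fell with blockade (log2 -1.14). Summed myeloid markers (6 of 7 in each, Adgre1 at 0 in the knockout experiment and Fcgr1 at 0 in the blockade experiment) went from 251–294 to 146–154 and from 346–355 to 85.4–88.8. Nearly all of this sum was Cd68 (from 208–222 to 125–127 and from 326–339 to 66.2–72.6). Only 3 of the 7 myeloid markers passed the filter and were tested in the knockout experiment, and 2 in the blockade experiment. Of those tested, Cd68 alone was called. CD4 T cell markers (4 of 4) went from 504–524 to 153–170 in the knockout experiment and were at 496–586 in the other. Cd4 itself did not pass the filter, at 0 to 7.88 in the knockout experiment and 1.03 to 9.55 in the other. Most of the control sum was Cd40lg. With Trim28 loss Cd40lg fell from 346 and 365 to 41.4 and 49.0 (log2 -2.95). Foxp3 rose from low values of 4.06 and 5.07 to 43.3 and 49.0 (log2 3.09). With blockade Cd40lg rose (log2 0.49) and Foxp3 fell (log2 -2.45). Zbtb7b fell in both, from 150 and 154 to 60.1 and 64.7 with Trim28 loss and from 169 and 154 to 112 and 115 with blockade. Of the B cell markers, 4 of 7 were tested with Trim28 loss (1 rose and 3 fell) and 3 with blockade (1 rose, 1 fell and 1 was not called). H2-Ab1, of antigen-presenting cells, fell in both experiments (log2 -1.65 and -4.96), and Ighm rose in both (0.46 and 0.55). Cd79a (from 15.2 and 16.2 to 2.95 and 2.94) and Cd79b (from 18.3 and 20.3 to 5.91 and 4.90) also fell with Trim28 loss. Pecam1, of endothelium and some leukocytes, also rose in both (0.93 and 1.03). The part of these cells in the results below was not tested, and in bulk RNA fewer cells of a type and less RNA per cell cannot be told apart.

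Without Trim28, the lipid genes moved in both directions. Of the 33, 11 rose, 14 fell and 8 did not pass the test at an adjusted p under 0.05, so 75.8% were called against 61% of all genes tested (32.9% called higher and 28.2% called lower). The median log2 fold change over the 33 genes was -0.04, against 0.03 over all genes, and the median absolute value was 0.30 against 0.32. Changes of at least 2-fold were called for Scap upward and for Scd1 and Abca1 downward, that is 1 gene higher and 2 lower, against 4.03% and 6.42% of all genes (10.4% in either direction). The 2 groups did not overlap for 30 of the 33 genes, against 82.3% of all genes. Under DESeq2 on recovered reads, 7 rather than 11 were called higher.

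With IL-2 blocked, decreases outnumbered increases. Of the same 33 genes, 21 fell, 6 rose and 6 did not pass, so 81.8% were called against 60.3% of all genes (28.9% lower and 31.4% higher). The median log2 fold change was -0.21, against 0.02 over all genes, while the median absolute value was 0.25 against 0.35. Decreases of at least 2-fold were called for Scd1, Abca1 and Abcg1 and no increase reached that size, against 10% of all genes lower and 4.86% higher by that size (14.9% in either direction). The groups did not overlap for 28 genes, against 79.3% of all genes. Without untreated library 2, 3 rather than 6 genes were called higher and 14 rather than 21 lower. The latter count was also 14 with no filter on low values, and 16 without untreated library 1.

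**Figure D1:**
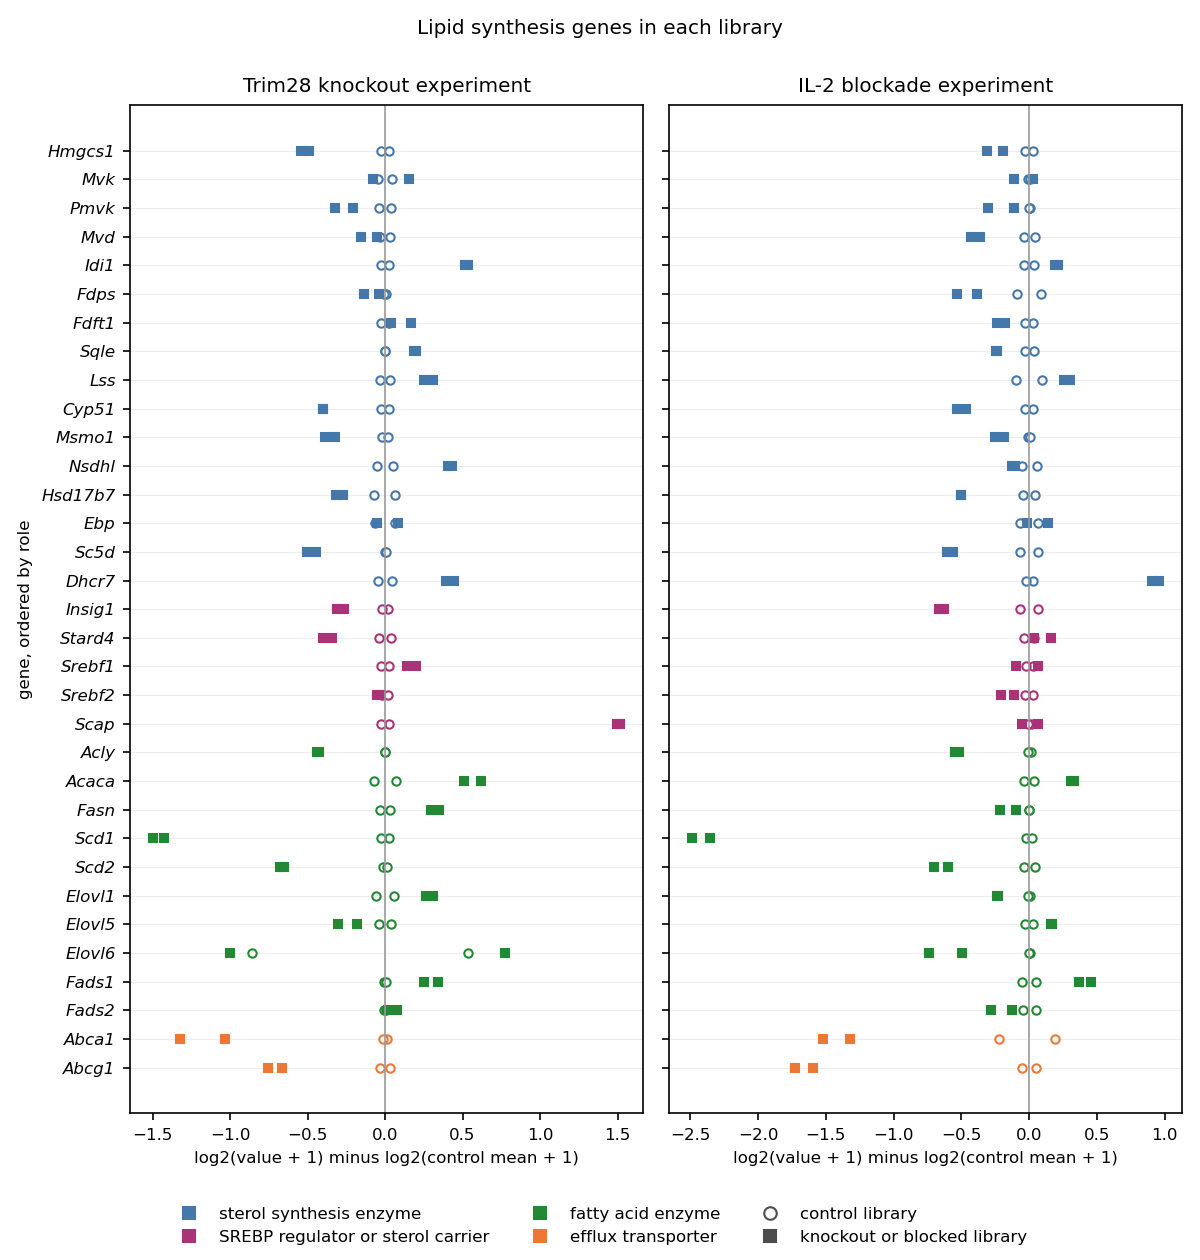
Each lipid gene in every library, as log2(value + 1) minus that of the mean of the control libraries (floxed control at left, untreated cells at right), with open circles for control libraries and filled squares for knockout or blocked libraries. Scap stood 1.51 above the control at left and on the zero line at right, Scd1, Abca1 and Abcg1 lay far to the left of it in both panels, and Elovl6 was split between the libraries of each group in the knockout experiment.

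The enzymes that lead from acetyl-CoA to squalene did not move as a block. Of all 16 sterol enzymes, before and after squalene, 5 rose, 6 fell and 5 did not pass with Trim28 loss. That is 68.8% called, against 61% of all genes tested. Hmgcs1 was at 3237 and 3349 normalised reads in the control libraries and at 2341 and 2262 in the knockout libraries, and at 3459 and 3612 in untreated libraries against 3087 and 2854 under anti-IL-2. It thus fell in both, by 0.52 on the log2 scale with Trim28 loss (SE 0.034, adjusted p = 9.25e-05) and by 0.25 with blockade (SE 0.055, adjusted p = 0.000565), and the difference between the effects passed its own test (log2 -0.27, adjusted p = 0.00651). The blockade call for Hmgcs1 was lost when no filter on low values was applied (adjusted p = 0.0523).

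Idi1, the isomerase that makes the allylic isoprenoid unit, went the other way. It was at 2000.2 and 2069 in the control libraries and at 2952 and 2904 in the knockout libraries, a log2 rise of 0.53 (SE 0.032, adjusted p = 7.09e-05). Under anti-IL-2 it was at 786 and 776 against 697 and 662 in untreated cells, a log2 rise of 0.20 (adjusted p = 0.0169) that was lost without untreated library 1 (adjusted p = 0.0539) or 2 (adjusted p = 0.203). The rise was larger with Trim28 loss (difference 0.33, adjusted p = 0.00164).

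Of the other enzymes before squalene, the mevalonate kinase gene Mvk passed in neither experiment (log2 0.04 and -0.04). Pmvk, the phosphomevalonate kinase, fell by 0.26 with Trim28 loss (adjusted p = 0.0112, and 0.0911 without knockout library 1) and by 0.21 with blockade (adjusted p = 0.033). That second call was lost without untreated library 1 (adjusted p = 0.134), untreated library 2 (0.114) or blocked library A (0.224). Mvd, the decarboxylase that follows, was at 308 and 295 in control and 271 and 291 in knockout libraries, with no call (adjusted p = 0.211). Under anti-IL-2 Mvd fell from 370 and 350.2 to 267 and 279, by 0.40 on the log2 scale (SE 0.091, adjusted p = 0.000985). Fdps, which makes farnesyl pyrophosphate, was at 1380 to 1526 in the knockout experiment, with no call. It fell by 0.46 under anti-IL-2 (adjusted p = 0.0325) from 84.2 and 74.2 to 54.4 and 60.4, and the call was lost without untreated library 1 (adjusted p = 0.191) or blocked library A (0.126). Fdft1, the squalene synthase, fell by 0.21 under anti-IL-2 (adjusted p = 0.0127), a call lost without untreated library 1 (adjusted p = 0.159) or 2 (0.0518), and was not called in the knockout (log2 0.10). Ctsb overlaps Fdft1 on the opposite strand over 774 exon bases, and whether the counting used strand is not given in the sources used here. Gm43738 shares 1124 exon bases with Fdps on the same strand and was at 0 in every library. How reads in these shared bases were counted is not given either, and their part in the Fdps values was not tested.

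From squalene to cholesterol, Cyp51, Sc5d, Msmo1 and Hsd17b7 fell in both experiments, while Lss and Dhcr7 rose in both. Cyp51, the lanosterol demethylase, was at 5654 and 5858 in control and 4364 and 4369 in knockout libraries, and at 7776 and 7469 in untreated and 5522 and 5265 in blocked libraries. It fell by 0.40 with Trim28 loss (adjusted p = 0.000123) and by 0.50 with blockade (adjusted p = 6.23e-08). Sc5d was at 1460 and 1467 in control and 1072 and 1032 in knockout libraries, and at 1523 and 1394 in untreated and 986 and 959 in blocked libraries. Its decreases were 0.48 (adjusted p = 0.00016) and 0.58 (adjusted p = 1.83e-07), with no overlap of groups in either experiment.

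Msmo1, a sterol C-4 methyl oxidase, fell by 0.35 with Trim28 loss (adjusted p = 0.000576) and by 0.22 with blockade (adjusted p = 0.00268, and 0.0615 without untreated library 2). Hsd17b7, a 3-ketosteroid reductase, fell by 0.29 (adjusted p = 0.00799) and by 0.50 (adjusted p = 1.82e-06). The knockout call for Hsd17b7 was lost without knockout library 1 (adjusted p = 0.0804) or 2 (0.102), whereas the blockade call was kept in every alternative run. For Cyp51, Sc5d, Msmo1 and Hsd17b7 the difference between the effects did not pass (adjusted p from 0.072 to 0.265).

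Dhcr7, which reduces 7-dehydrocholesterol to cholesterol, had the largest increase of the set under anti-IL-2. It was at 426 and 411 in untreated and 785 and 812 in blocked libraries, 1.91-fold higher (log2 0.93, SE 0.073, adjusted p = 2.04e-09). In the knockout experiment it was at 328 and 308 in control and 419 and 433 in knockout libraries, a log2 rise of 0.42 (adjusted p = 0.00138). The rise under blockade exceeded that with Trim28 loss by 0.51 (adjusted p = 0.000717). Dhcr7 and Sc5d, which act on neighbouring sterol intermediates, thus moved in opposite directions in both experiments.

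Nsdhl and Sqle separated the experiments. Nsdhl was at 374 and 349.7 in control and 488 and 480.3 in knockout libraries, a log2 rise of 0.42 (adjusted p = 0.00121), while its values of 718 and 665 in untreated and 633 and 643 in blocked libraries gave no call (log2 -0.12, adjusted p = 0.176). The difference of the effects was 0.54 (adjusted p = 0.000476). Sqle, the squalene epoxidase, was at 1451 and 1449.6 in control and 1653 and 1665 in knockout libraries, and at 2088 and 2182 in untreated and 1807 and 1804 in blocked libraries. It rose by 0.19 with Trim28 loss (adjusted p = 0.00274, and 0.0816 with DESeq2) and fell by 0.24 with blockade (adjusted p = 0.000851, and 0.0573 without untreated library 2), with a tested difference of 0.44 (adjusted p = 8.56e-05). Lss, the lanosterol synthase, rose by 0.28 in both (adjusted p = 0.00437 and 0.00374). These calls were lost without knockout library 2 (adjusted p = 0.058) and without untreated library 2 (0.142). Ebp, a sterol isomerase, passed in neither.

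Among the sterol-sensing genes, Scap set the 2 experiments furthest apart. Scap was at 1198 and 1152 normalised reads in the control libraries and at 3321 and 3363 in the knockout libraries, 2.84-fold higher (log2 1.51, SE 0.034, adjusted p = 4.75e-06). In the second experiment it was at 2053 and 2019 in untreated and 1957 and 2129 in blocked libraries, with overlapping groups and no call. The difference between the effects was 1.504 (SE 0.067, adjusted p = 4.26e-09). 5830462I19Rik, which shares 985 exon bases with Scap on the opposite strand, was at 24.3 to 30.5 in the knockout experiment and at 8.59 to 26 in the other.

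Insig1, which retains the SCAP and SREBP complex in the endoplasmic reticulum, was at 1591 and 1549.95 in control and 1267 and 1308 in knockout libraries, and at 1615 and 1773 in untreated and 1095 and 1065 in blocked libraries. It fell by 0.29 (adjusted p = 0.00103) and by 0.65 (adjusted p = 3.34e-08), further under blockade (difference 0.36, adjusted p = 0.00175). Transcripts of the SREBP genes Srebf1 and Srebf2 moved little. Srebf1 rose by 0.17 with Trim28 loss (adjusted p = 0.00912), a call lost without knockout library 1 (adjusted p = 0.051) or 2 (0.0868), and was not called under blockade. Srebf1 shares 109 exon bases with Rai1 on the opposite strand, which went from 795–853 to 1272–1354 in the knockout experiment. Srebf2 was not called with Trim28 loss and fell by 0.16 under blockade (adjusted p = 0.011), a call lost without untreated library 1 (adjusted p = 0.288) or 2 (0.104).

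Stard4, a soluble carrier of cholesterol between membranes, was at 1300.3 and 1372 in control and 1010.4 and 1055 in knockout libraries, a fall of 0.37 (adjusted p = 0.000821). Its values in untreated cells (1481 and 1404) and under anti-IL-2 (1613 and 1475) overlapped. The difference between the effects was -0.47 (adjusted p = 0.000452), with no call for Stard4 under blockade (log2 0.10).

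The largest decrease of the set in either experiment was that of a fatty acid gene. Scd1, a stearoyl-CoA desaturase that makes oleate, was at 524 and 507 normalised reads in control and 191 and 182 in knockout libraries, and at 511 and 526 in untreated and 91.6 and 100.7 in blocked libraries. Scd1 was 2.75-fold lower with Trim28 loss (log2 -1.46, SE 0.057, adjusted p = 1.96e-05) and 5.35-fold lower with blockade (log2 -2.42, SE 0.11, adjusted p = 3.09e-13). The decrease under blockade was the larger one (difference 0.96, adjusted p = 3.15e-05). Scd2, a paralog at a higher level per exon length in every group (50.8 against 7.85 RPKM, reads per kilobase of exon scaled to library size, in the control), was at 3689 and 3768 in control and 2372 and 2328 in knockout libraries, and at 3131 and 3315 in untreated and 2127 and 1982 in blocked libraries. Scd2 fell by 0.67 and 0.65 (log2), with a difference of -0.02 (SE 0.065, adjusted p = 0.866). How reads shared between the paralogs Scd1 and Scd2 were counted is not given in the sources used here.

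The enzymes that supply and build palmitate were split. Acly, which makes cytosolic acetyl-CoA from citrate, was at 8490 and 8514 in control and 6326 and 6266 in knockout libraries, and at 10458 and 10294 in untreated and 7096 and 7235 in blocked libraries. Acly fell by 0.43 (adjusted p = 4.53e-05) and by 0.53 (adjusted p = 1.24e-08). Acaca, the acetyl-CoA carboxylase, was at 779 and 858 in control and 1256 and 1168 in knockout libraries, and at 853 and 900.1 in untreated and 1104 and 1084 in blocked libraries. Acaca rose by 0.57 (adjusted p = 0.000586) and by 0.32 (adjusted p = 0.00025), so the genes for these consecutive steps moved in opposite directions in both experiments.

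Fasn, the fatty acid synthase, rose in one experiment and fell in the other. Fasn was at 6856 and 7191 in control and 8938 and 8628 in knockout libraries, a log2 rise of 0.32 (adjusted p = 0.000499). It was at 13320.4 and 13299 in untreated and 11486 and 12446 in blocked libraries, a fall of 0.15 (adjusted p = 0.0136) that was lost without untreated library 1 (adjusted p = 0.212) or 2 (0.205). The difference of the effects was 0.48 (adjusted p = 5.74e-05) and passed in every alternative run.

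Elongases of very long and polyunsaturated chains also differed between the experiments. Elovl1 was at 1445 and 1329 in control and 1664 and 1719 in knockout libraries, and at 2407 and 2386 in untreated and 2034 and 2041 in blocked libraries, a rise of 0.29 (adjusted p = 0.00352) and a fall of 0.23 (adjusted p = 0.000811). The rise of Elovl1 was lost without knockout library 1 (adjusted p = 0.0624) or 2 (0.0808), and the difference was 0.52 (adjusted p = 5.23e-05). Cdc20, which shares 53 exon bases with Elovl1 on the opposite strand, went from 564–624 to 1031–1058 in the knockout experiment and from 758–760 to 1205–1323 under anti-IL-2. Elovl5 did the reverse of Elovl1, falling by 0.24 with Trim28 loss (adjusted p = 0.00864) and rising by 0.17 with blockade (adjusted p = 0.0101), with a difference of -0.41 (adjusted p = 0.000503). The Elovl5 calls were lost without knockout library 2 (adjusted p = 0.0848) and without untreated library 1 (0.221) or 2 (0.0746).

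Elovl6, which elongates palmitate, varied within the groups of the knockout experiment and was not called. It was at 90.3 and 239 in the control libraries and at 81.7 and 282 in the knockout libraries, so library 1 of each group was low and library 2 high (log2 0.05, SE 0.67). Under anti-IL-2 it was at 238 and 201 against 337 and 336 in untreated cells, a fall of 0.62 (adjusted p = 3.89e-05) that was lost in a fit of all 8 libraries (adjusted p = 0.264). The front-end desaturase Fads1 rose in both, by 0.30 from 323 and 325 to 412 and 386 with Trim28 loss, and by 0.41 from 530.03 and 493 to 660 and 703 with blockade. The first of these was lost with DESeq2 (adjusted p = 0.179). Fads2 was not called in the knockout and fell by 0.20 with blockade (adjusted p = 0.0196), a call lost without untreated library 2 (adjusted p = 0.222) or blocked library A (0.0894).

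Both efflux transporters fell in both experiments. Abca1, which hands cholesterol to lipid-poor apolipoprotein, was at 145 and 143 normalised reads in control and 69.9 and 56.9 in knockout libraries, and at 153 and 114 in untreated and 45.8 and 52.7 in blocked libraries. Abca1 was 2.26-fold lower with Trim28 loss (log2 -1.18) and 2.65-fold lower with blockade (log2 -1.41). Abcg1, which exports cholesterol to high-density lipoprotein, was at 288 and 300.1 in control and 185 and 174 in knockout libraries, and at 206 and 192 in untreated and 59.2 and 65.2 in blocked libraries. Abcg1 was 0.71 lower on the log2 scale with Trim28 loss and 3.16-fold lower with blockade (log2 -1.66), a larger decrease (difference 0.95, adjusted p = 0.000216). Myeloid cells also express both transporters. Of the few myeloid markers that were tested (3 of 7 in the knockout and 2 of 7 in the blockade experiment), Cd68 alone was called, lower in both experiments. Its part in the result was not tested.

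**Figure D2:**
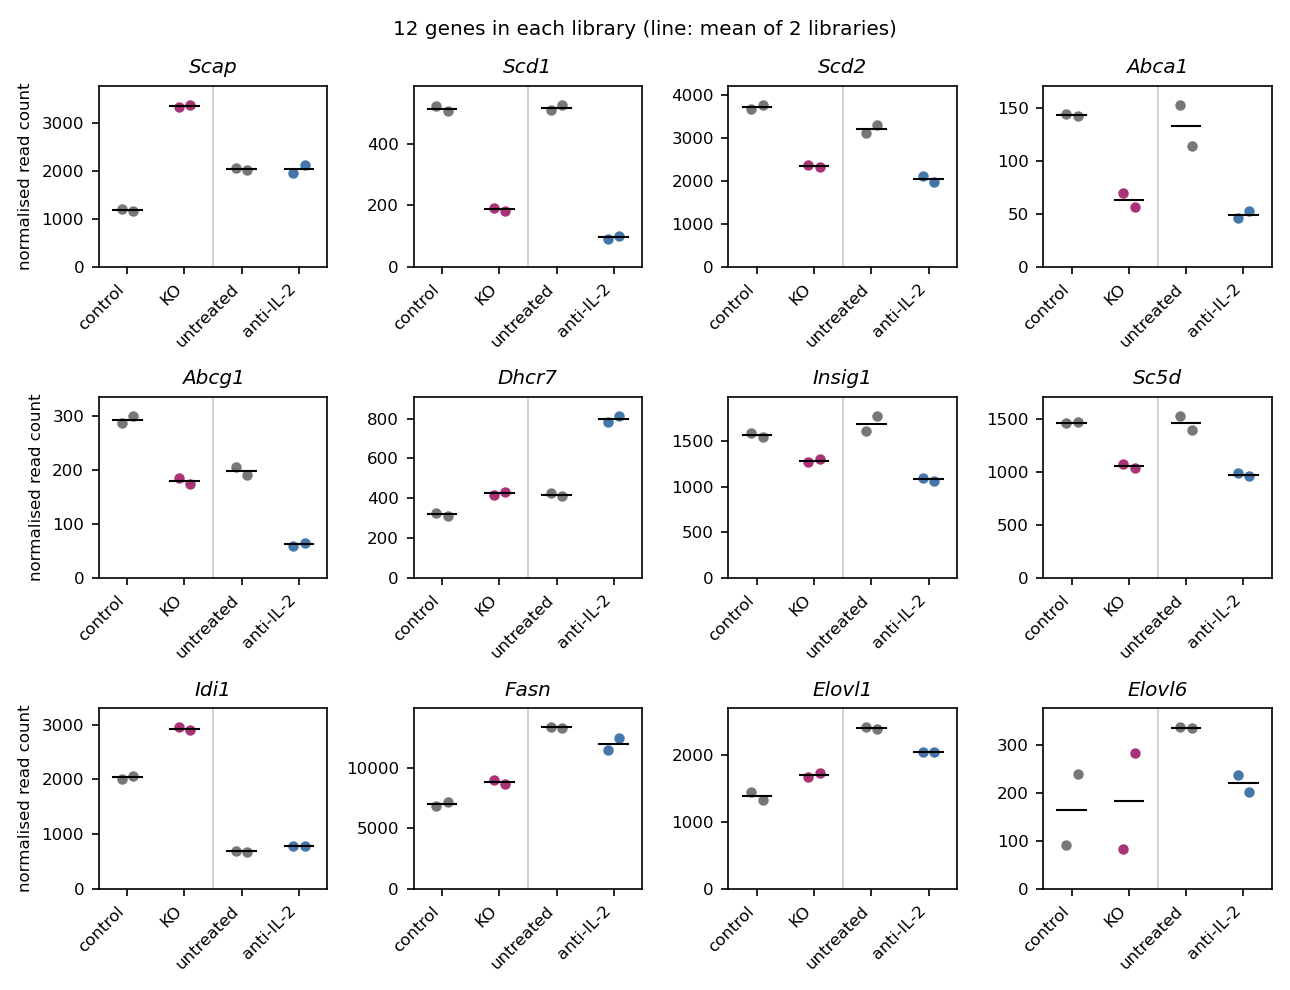
Normalised read counts of 12 lipid genes in each library, with a line at the mean of the 2 libraries of a group and a vertical rule between the separately normalised experiments. Scap rose from a mean of 1175 to 3342 in the knockout (KO) and was at means of 2036 and 2043 in the other experiment, Scd1 fell from 516 to 187 and from 519 to 96.2, and the libraries of Elovl6 ranged from 81.7 to 282 within the knockout group.

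Side by side, 12 genes fell in both experiments (Hmgcs1, Pmvk, Cyp51, Msmo1, Hsd17b7, Sc5d, Insig1, Acly, Scd1, Scd2, Abca1 and Abcg1) and 5 rose in both (Idi1, Lss, Dhcr7, Acaca and Fads1). Sqle, Fasn, Elovl1 and Elovl5 were called in opposite directions. These are 36.4%, 15.2% and 12.1% of the 33 genes, against 18.1%, 22.5% and 5.59% of all genes tested in both. The 2 effects had the same sign for 66.7% of the 33 genes, against 73.4% of 12428 genes tested in both. Across the 33 genes the effects correlated with Pearson r 0.75 and Spearman rho 0.75, and with 0.54 and 0.67 over the 30 genes left without Scd1, Abca1 and Abcg1. Over all genes tested in both, Pearson r was 0.60 and Spearman rho 0.61. These describe genes of the same libraries, which are not independent replicates. The experiments share no library.

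The difference between the effects passed for 18 of the 33 genes (54.5%), against 41.7% of all genes. The knockout effect was the higher one for 14 and the lower one for 4 (Hmgcs1, Dhcr7, Stard4 and Elovl5), against 24.7% and 17% of all genes. The difference reached 2-fold for Scap alone, against 8.46% of all genes (5.42% higher and 3.03% lower). With DESeq2, 9 rather than 14 were higher. The differences for Mvd (0.29, adjusted p = 0.0473), Fdps (0.37, adjusted p = 0.0285), Fdft1 (0.31, adjusted p = 0.0102), Acaca (0.25, adjusted p = 0.033) and Fads2 (0.25, adjusted p = 0.0453) were each lost without at least 1 library. For Fdft1 this was knockout library 1 (adjusted p = 0.0531). For Acaca it was control library 1 (0.143), knockout library 1 (0.13), untreated library 2 (0.123) or blocked library B (0.0578). For Fdps it was either control library, knockout library 2, untreated library 1 or blocked library A (0.0672 to 0.124), and for Fads2 any control or knockout library, untreated library 2 or blocked library A (0.0603 to 0.161). For Mvd it was any library other than blocked library B (0.0508 to 0.164).

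**Figure D3:**
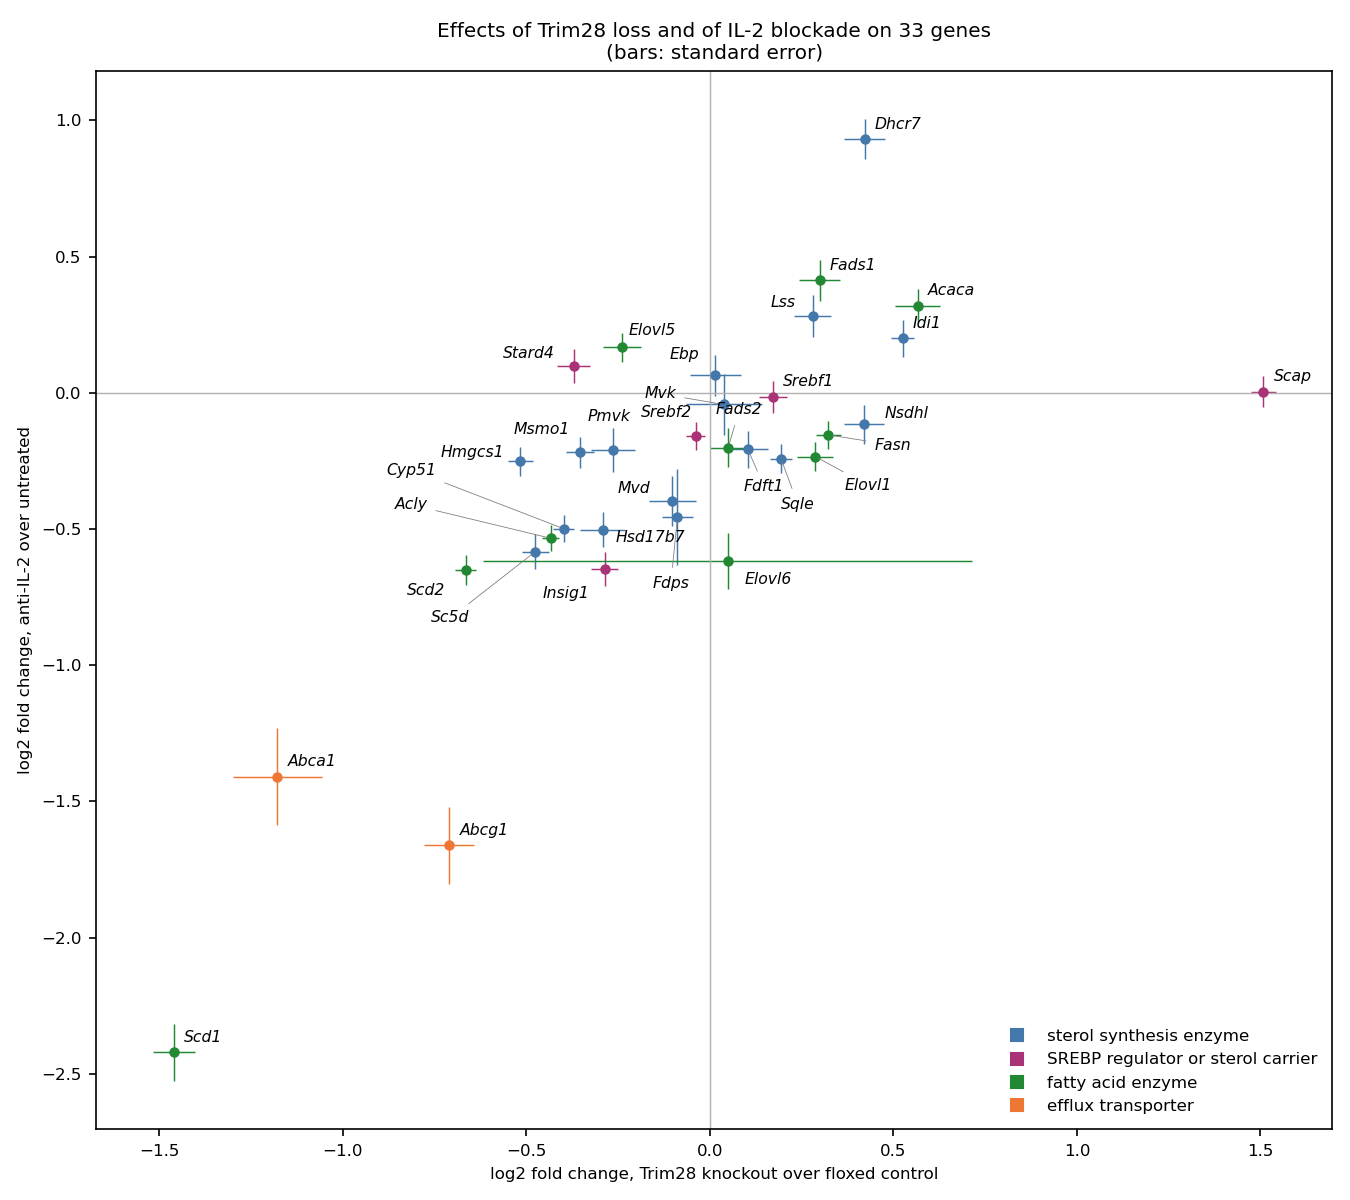
Log2 fold change with anti-IL-2 (vertical) against that with Trim28 loss (horizontal) for the 33 lipid genes, coloured by role, with bars of 1 standard error. Scd1, Abca1 and Abcg1 lie at the lower left, Dhcr7 at the top with 0.42 and 0.93, and Scap at the far right with 1.51 and a blockade value near 0.

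Of 15 genes of the isoprenoid branch and neighbouring sterol enzymes, 8 rose and 1 fell with Trim28 loss (median log2 0.15), and 10 rose and 1 fell with blockade (median 0.17). In the 2 experiments 60% and 73.3% of them were called, against 61% and 60.3% of all genes. All genes were called higher in 32.9% and 31.4% and lower in 28.2% and 28.9%, with medians of 0.03 and 0.02. The quinone prenyltransferase Coq2 rose by 0.60 and 0.58, and Lbr, a nuclear envelope protein with sterol reductase activity, by 0.30 and 0.49. The Rab geranylgeranyl transferase subunit Rabggtb rose by 0.53 and 0.16, whereas its partner Rabggta rose by 0.28 and fell by 0.39. The blockade rise of Rabggtb was lost without untreated library 1 or 2, with DESeq2 (adjusted p = 0.119) and with no filter on low values (0.114). The knockout rise of Rabggta was lost without knockout library 1 or 2 and with DESeq2 (adjusted p = 0.146).

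Of 12 genes of SREBP processing and the LXR axis, 6 rose and 3 fell with Trim28 loss (median 0.22), and of 11 tested 5 rose and 2 fell with blockade (median 0.10). These calls were 75% and 63.6% of those tested, against 61% and 60.3% of all genes. Rxra, the obligate partner of LXR, rose by 1.39 (2.62-fold) and by 1.92 (3.78-fold). The LXR-beta gene Nr1h2 was not called in the knockout (log2 0.07) and fell by 0.49 with blockade. Mbtps2, the second protease that releases SREBP, rose by 0.51 and 0.64, and Erlin1, a partner of the sterol-sensing degradation machinery, by 0.43 and 0.67. The knockout calls of both were lost without knockout library 1 and with no filter on low values (adjusted p = 0.244 and 0.0728). That of Mbtps2, at 692 and 467 in the knockout libraries, was also lost without control library 2. It was lost too with TMM (adjusted p = 0.0545) and upper-quartile rescaling (0.0675). That of Erlin1 was also lost without knockout library 2 and with DESeq2 (adjusted p = 0.158).

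In fatty acid supply, activation and esterification, 11 of 19 tested genes rose and 7 fell with Trim28 loss (median 0.21), and 7 of 21 rose and 6 fell with blockade (median 0.03). The shares called were 94.7% and 61.9%, against 61% and 60.3% of all genes. The mitochondrial citrate carrier Slc25a1, which exports the substrate of Acly, rose by 0.84 and 0.82. The cytosolic acetyl-CoA synthetase Acss2 fell by 1.29 and 1.31, the polyunsaturated acyl-CoA synthetase Acsl4 by 0.65 and 0.96, and the phosphatidate phosphatase Lpin1 by 0.90 and 1.33. In cholesterol storage, trafficking and oxidation, 1 of 8 tested genes rose and 5 fell with Trim28 loss (median -0.21), and 1 rose and 4 fell with blockade (median -0.24). Here 75% and 62.5% were called. The lysosomal cholesterol binder Npc2 fell by 0.82 and 1.47, the late endosomal carrier Stard3 by 0.47 and 1.02, and the sterol esterifying enzyme gene Soat2 by 1.17 and 1.31, while the lipoprotein receptor Scarb1 rose by 0.56 and 0.38.

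Per exon length, in RPKM, Acly was the highest of the 33 genes in every group, at 120 (control), 90.4 (knockout), 114 (untreated) and 83.2 (anti-IL-2). Cyp51 came next in the control, knockout and untreated groups at 97.1, 74.9 and 100.3, and was at 74.9 under anti-IL-2. There Srebf2 stood at 77.9, and its libraries (75.7 to 80.2) overlapped those of Cyp51 (72.8 to 76.9). Abca1 was the lowest in every group, between 0.29 and 1.04. Scap moved from the 21st place of 33 in the control to the 9th in the knockout, with levels of 11.8 and 34.

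The level of Fdps and Idi1 differed between the experiments more than within either. Fdps was at 113 RPM (reads scaled to library size, with no correction for length) in the floxed control and at 4.60 in untreated cells, a ratio of 24.6, and the ratio for Idi1 was 3.84. Of 4429 genes at 50 RPM or more in the floxed control, 368 (8.31%) were more than 10-fold lower in untreated cells. The experiments listed different numbers of genes (49490 and 55291). Gm48574, which shares 323 exon bases with Idi1 on the opposite strand, was listed in the blockade experiment alone. Gm43738 overlaps Fdps on the same strand. The part of these overlaps in the levels was not tested. The tables were made and normalised separately. The strain, activation time and counting of the experiments cannot be told apart here, so no level was tested between them.

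**Figure D4:**
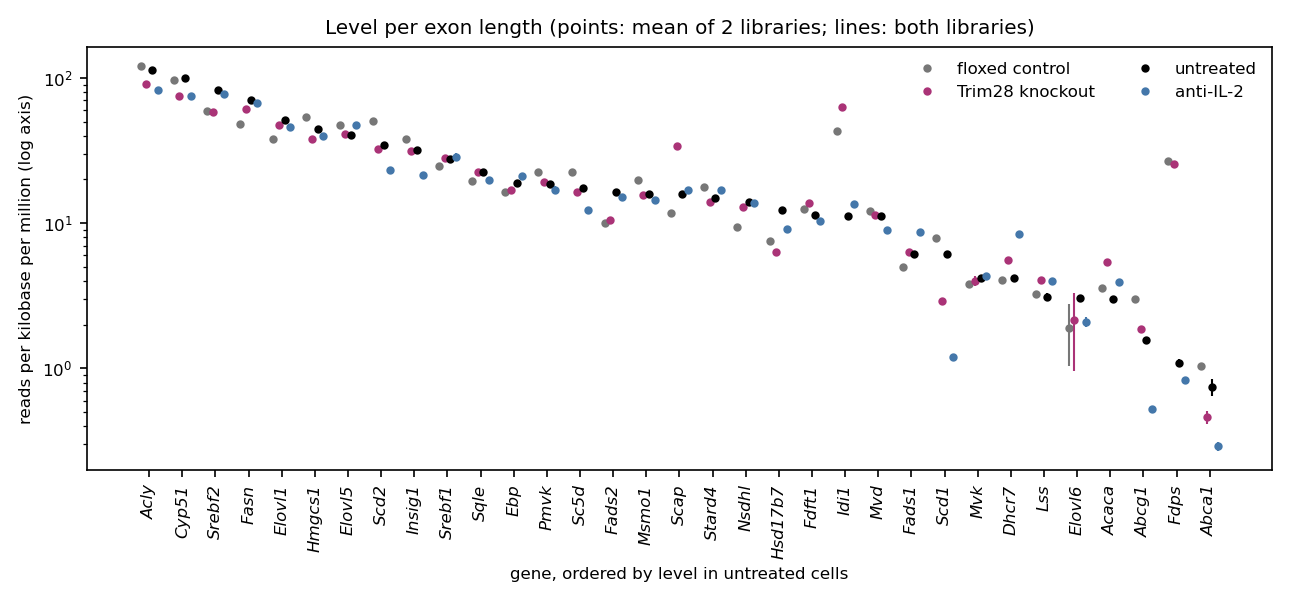
Level of each lipid gene per exon length in the 4 groups, in RPKM on a log axis, with points at the mean of 2 libraries and lines to both libraries. Genes are ordered by their level in untreated cells, from Acly at 114 to Abca1 at 0.75, and Fdps and Idi1 stand out by the distance between the 2 experiments.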

How the data were processed

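Members and gene lists were chosen with earlier results of these data known. Tools named per the submitters' processing notes are HISAT2 2.2.1, Trim Galore 0.4.4, DESeq2 and StringTie 2.1.4, with the build mm10; the read counter, annotation and filters are not given in the sources used here. The deposited values are a normalised signal, read counts divided by a size factor per library, and 100% gave whole reads within 0.001. The authors' deposited log2 fold changes and p-values served only as a check: their table gave the same direction for 33 of 33 genes in both experiments and called 23 and 21 of them, against 25 and 27 here.

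Genes reaching 10 in 2 or more libraries were tested on log2(value + 1), which understates changes of low genes, with limma 3.58.1 (R 4.3.3, mean-variance trend) and Benjamini-Hochberg adjustment. The threshold was an adjusted p of 0.05. Separate fits served the experiments; the difference of effects used all 8 libraries. edgeR 4.0.16, DESeq2 1.42.0, other filters, pseudocounts and scalings, and leaving out each library were alternatives. The fits were tested on simulated data. Lengths are GENCODE exon unions on GRCm38. All 33 genes are named. Outside them, the 4 with the lowest adjusted p of each list in either experiment are named, with Trim28 and Il2ra as checks. The anti-IL-2 columns carry no replicate number and are called blocked library A and B. Sums of 2 other marker lists are not reported here.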

Additional observations from a re-analysis of the deposited data

How the results depend on the processing

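Of the calls on lipid genes, 6 of 11 increases and 11 of 14 decreases with Trim28 loss were kept in every alternative, as were 3 of 6 and 11 of 21 with blockade and 9 of 14 and 4 of 4 for the difference. With DESeq2 on recovered reads, 2846 genes rose and 2660 fell with Trim28 loss (5065 and 4344 with limma), 7 lipid genes rose, and the difference was higher for 1722 genes and 9 lipid genes. DESeq2 lost the knockout calls of Pmvk, Sqle, Lss, Hsd17b7, Srebf1 and Fads1 (adjusted p from 0.0516 to 0.179). It lost the blockade calls of Pmvk, Idi1, Fdps, Elovl5 and Fads2 (0.0586 to 0.195). The differences lost were those of Mvd, Fdps, Fdft1, Acaca and Fads2 (0.138 to 0.413). Leaving out 1 library gave 3336 to 4704 genes higher in the knockout, and 3 to 7 lipid genes higher with blockade (3 without untreated library 2). Directions of uncalled genes turned with scaling. In the knockout, Ebp (0.01) went to -0.019 in edgeR, -0.0199 in DESeq2, -0.0194 with TMM rescaling and -0.0549 with upper-quartile rescaling, where Mvk, Elovl6, Fads2 and Nr1h2 went to -0.0311, -0.0207, -0.0192 and -0.003. With blockade, Scap (0.004) went to -0.0084 (edgeR), -0.0154 (DESeq2), -0.0099 (TMM) and -0.0174 (upper quartile). Leaving out 1 library gave, in the knockout, -0.0536 to 0.0823 for Ebp, -0.0786 to 0.154 for Mvk and -0.84 to 0.936 for Elovl6. With blockade it gave -0.0567 to 0.0648 for Scap, -0.0958 to 0.0683 for Srebf1, -0.0117 to 0.139 for Ebp and -0.115 to 0.0294 for Mvk. For the difference it gave -0.0984 to 0.0907 for Lss, -0.124 to 0.0261 for Ebp, -0.222 to 1.554 for Elovl6, -0.148 to 0.0392 for Pmvk, -0.0356 to 0.197 for Mvk and -0.0666 to 0.035 for Scd2. The cause was not tested. The share of calls that were higher was 53.8% in the knockout, 49.8% with TMM and 45.6% with upper-quartile rescaling, and 59.3%, 53.2% and 52% for the difference. With the replicate block, 4881 genes rose and 4197 fell in the knockout, with 11 and 14 lipid genes. Deviations from the group means correlated at 0.01 over 15415 genes between control and knockout libraries of the same number. Because a group has 2 libraries, both pairs give this same value, and it cannot decide whether the numbers pair the libraries. No paired analysis was possible for blockade because the anti-IL-2 columns carry no numbers. With 2 libraries a group, small changes are the least certain.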
